A study of Mus musculus with 4 samples.

Results

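Major urinary proteins are small secreted carriers that the liver of male mice makes in large amounts. Here 4 genes of the family, Mup3, Mup7, Mup20 and Mup21, were followed in the liver of mice on a diet without methionine and choline. They were chosen by symbol among the array rows whose platform annotation names exactly 1 gene. Of the 4 symbols, 3 had such a row, 1 row each, among 22180 genes tested. Mup7 had none and was not analysed here, so the values below are those of Mup3, Mup20 and Mup21.

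The samples were livers of wild-type male C57BL/6J mice, an inbred strain. The mice were assigned at random at 6 weeks of age to a normal diet (ND) or to a methionine- and choline-deficient diet (MCD), which they ate for 20 weeks. Each diet is represented by 2 samples, 4 in all, each on its own Mouse Gene 2.1 ST array. The labels name the samples mice-1 and mice-2 of each diet and do not state whether a sample was 1 animal or a pool, so every p-value refers to the variation among these 4 samples alone. All signals are the authors' deposited values, read as log2, where a difference of 1 is 2-fold; the base was inferred from their range and the fold changes depend on it. The median signal was 2.57 to 2.65 on the 4 arrays and the brightest row lay between 12.07 and 12.13, and the number of arrays limits the precision.

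Major urinary proteins belong to the lipocalins, barrel-shaped proteins with a pocket for small hydrophobic molecules. They leave the hepatocyte for the blood, pass the kidney filter and reach the urine, where they carry volatile pheromones and release them slowly. Their hepatic transcription is higher in males and depends on the pulsatile release of growth hormone, with further input from androgens, glucocorticoids and thyroid hormone. The genes form one cluster of recent duplicates, and the central copies are close to identical in sequence.

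In MCD livers Mup3 and Mup21 fell strongly, whereas Mup20 was only slightly dimmer and did not pass the test. Of the 3 measured genes 2 were lower at an adjusted p under 0.05 in limma, a linear model with moderated variances fitted across all genes. Over all 22180 genes 3.62% were lower by the same rule. None of the 3 was higher in limma after adjustment (0 genes), beside 6.37% of all genes by the same rule. At an unadjusted p under 0.05 none was higher either (0 genes). The shares of all genes that passed, here and below, use the adjusted threshold and are no reference for counts at an unadjusted p. In either direction 9.98% of all genes passed. The median log2 difference of the 3 was -3.04, beside -0.03 over all genes. In whole liver, fewer cells of a type and less RNA per cell cannot be told apart.

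**Figure D1:**
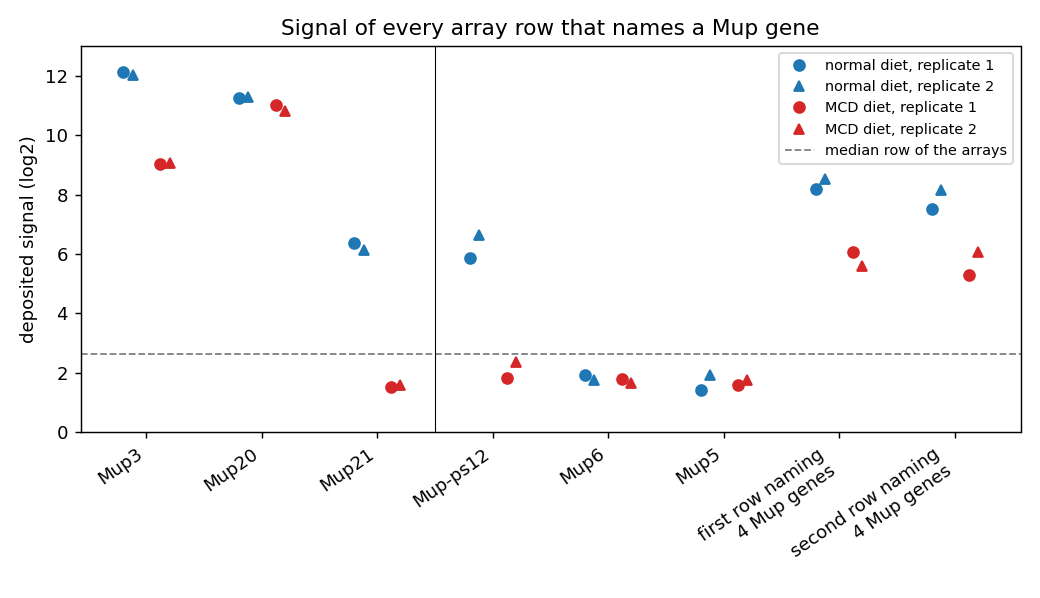
Deposited log2 signal of each row that names a Mup gene, with 1 point per array, normal diet in blue and MCD diet in red; the dashed line is the median row of the arrays. Mup3 drops from above 12 to about 9 and Mup21 from above 6 to below the median row, while the 4 Mup20 points lie between 10.81 and 11.28.

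Mup3 encodes a major urinary protein at one end of the cluster. On the normal diet its signal was 12.13 in replicate 1 and 12.03 in replicate 2, and on MCD it was 9.03 and 9.06. The arrays of each diet lay close together, and the diets were far apart. The fall was 3.04 ± 0.12 on the log2 scale (± gives limma's standard error here and below, with n = 2 arrays in each diet), or 8.21-fold lower in MCD livers (limma adjusted p = 0.000283). On normal diet replicate 1 Mup3 was the brightest of all 34472 rows, and on replicate 2 it ranked 7. On the MCD arrays it ranked 532 and 502, at percentiles 98.5 and 98.5 of all rows. Among the 802 genes that fell, Mup3 had the rank 32 by the size of the change.

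Mup21 is the neighbour of Mup3 and the last gene of the cluster. It gave 6.36 and 6.14 on the normal diet and 1.54 and 1.59 on the MCD diet. The normal diet signals stood at percentiles 89.4 and 87.9 of all rows, and the MCD signals near the bottom of the scale at percentiles 10.6 and 11.2. The difference was -4.68 ± 0.13, or 25.7-fold lower in MCD livers (limma adjusted p = 0.000163), which ranked 8 among the 802 genes that fell. Background signal was not analysed here, so the size of a fall that ends this low is uncertain.

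Mup20, also called darcin, is the male pheromone protein that attracts females and trains them to remember the scent of its owner. Its signal was 11.26 and 11.28 on the normal diet and 10.999 and 10.81 on the MCD diet. Both MCD arrays were below both normal diet arrays, as they were for Mup3 and Mup21, a pattern shown by 29.2% of all genes. None of the 3 had both MCD arrays above both normal diet arrays, as 25.0% of all genes did. The difference of -0.36 ± 0.13 (1.29-fold) had an unadjusted p of 0.029 and did not pass (limma adjusted p = 0.149). Its 95% interval, not adjusted for the number of genes, ran from -0.68 to -0.05, which leaves out falls of the size seen for Mup3 and Mup21. Mup20 ranked 57 and 61 from the brightest row under the normal diet and 74 and 88 under MCD.

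The 3 genes therefore moved by unequal amounts on the same arrays. The signal of Mup3 minus that of Mup20 was 0.87 and 0.76 on the normal diet against -1.97 and -1.75 on MCD, a shift of -2.67. For Mup20 minus Mup21 the arrays gave 4.90 and 5.14 against 9.46 and 9.22, a shift of 4.32. For Mup3 minus Mup21 they gave 5.77 and 5.89 against 7.49 and 7.47, a shift of 1.65. In each of these 3 pairs the diets did not overlap. An exact two-sided permutation test gave p = 0.333 for each, the smallest value that this test can give with 2 arrays against 2, so it cannot reach significance here. Mup21 lay near the bottom of the scale on MCD, where background was not analysed, so the sizes of the shifts that involve Mup21 are uncertain. Only changes of a ratio between diets are read here, since different rows do not share a scale for transcript amounts.

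**Figure D2:**
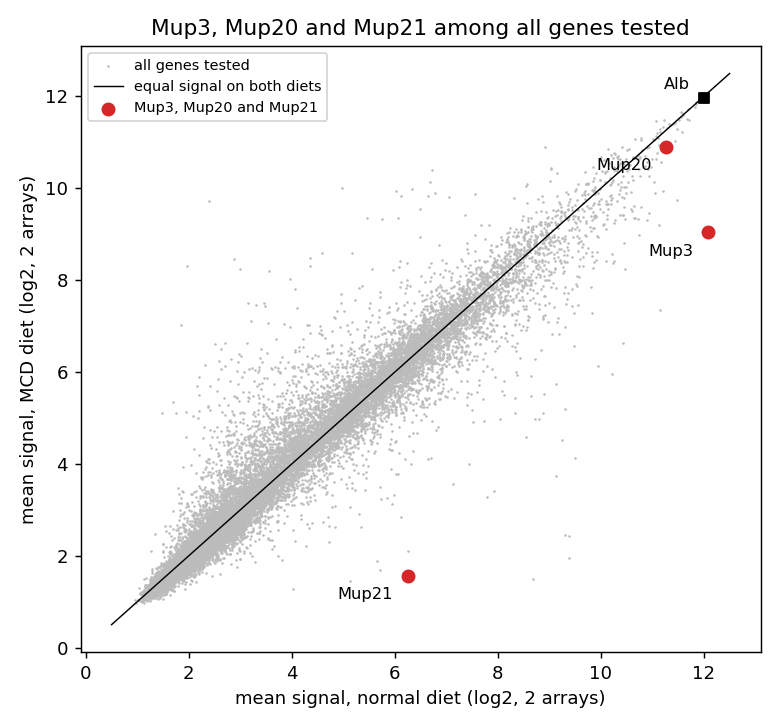
Mean log2 signal on the normal diet (x) against the MCD diet (y), 2 arrays each, for all 22180 genes in grey; Mup3, Mup20 and Mup21 are red, Alb is the black square and the line marks equal signal. Mup3 lies 3.04 below the line at the bright end of the scale and Mup21 lies 4.68 below it, while Mup20 and Alb lie near it.

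Whether the scale is compressed at its bright end was not tested. On the normal diet the mean signal was 12.08 for Mup3 and 11.27 for Mup20, on rows that do not share a scale for transcript amounts. Of the 44 genes with a mean normal diet signal of at least 11, 8 fell, or 18.2%, and 0 rose (limma; 1 was higher at an unadjusted p under 0.05). Over all genes 3.62% fell and 6.37% rose by the same rule. The 44 bright genes had a median difference of -0.02 and a range of -3.81 to 0.40. Mup3 had the rank 2 from the largest fall among them and Mup20 the rank 11. The limit of 11 was chosen after the values were seen. It was set on the normal diet signal alone, so genes bright only on MCD could not enter. No row of any array exceeded 12.13, which left little room for a rise. This choice favours falls, so the shares of the 44 genes are not like those of all genes.

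Mup3 and Mup21 share most of the sequence just before their start sites, which is shown because they fell together. The RefSeq promoter table (GRCm38.p6) matched Mup3, Mup7 and Mup21 of the 4 symbols. The 250 bases before the annotated start are given 5′ to 3′, for Mup3 at chr4:62087318-62087567 and for Mup21 at chr4:62150842-62151091, both on the minus strand. Capitals mark the matches to the motifs named after the sequences.
Mup3: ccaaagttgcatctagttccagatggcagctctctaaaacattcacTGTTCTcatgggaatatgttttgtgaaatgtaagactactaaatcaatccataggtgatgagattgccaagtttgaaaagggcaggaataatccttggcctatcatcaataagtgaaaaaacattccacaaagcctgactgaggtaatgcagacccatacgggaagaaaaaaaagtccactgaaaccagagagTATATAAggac
Mup21: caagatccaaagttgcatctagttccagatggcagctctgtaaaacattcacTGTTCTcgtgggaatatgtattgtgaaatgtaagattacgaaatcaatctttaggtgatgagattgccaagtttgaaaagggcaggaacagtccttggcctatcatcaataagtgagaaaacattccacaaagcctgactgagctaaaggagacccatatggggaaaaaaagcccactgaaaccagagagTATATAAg
Aligned with unpenalised end gaps, the 2 windows had 228 identical bases over 247 columns, or 92.3%. Of the 14 Mup genes with such a window, Mup3 and Mup21 shared 71.9% to 87.9% with the other 12, which among themselves had a median of 93.1% (77.5% to 98.8%, 66 pairs). Free ends were chosen after an alignment with penalised end gaps had been seen, because the windows are offset. That alignment gave 89.1% for Mup3 and Mup21, 43.2% to 78.7% against the others, and a median of 74.7% (39.9% to 97.6%) among the others.

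The windows were searched on both strands for 4 kinds of motif. A TATA-type element, TATATAA, lies just before the annotated start of both genes, from position -11 to -5 in Mup3 and from -8 to -2 in Mup21. It was present in 11 of the 14 Mup windows and in 3.04% of the 32851 mouse promoter windows. These letters were chosen after the sequences were seen. The letters searched first, TATAAA, were in 2 of the 14 and in 12.4% of all windows and are not capitalised. Part of a glucocorticoid receptor element, TGTTCT, lies from -204 to -199 in Mup3 and from -198 to -193 in Mup21. Of the 14 windows these 2 held it, beside 16.1% of all windows. The letters of a STAT5-type element, TTCNNNGAA, and of a C/EBP core, TTGCNNAA, were in 0 of the 14 windows, beside 7.02% and 9.56% of all. The elements do not overlap each other in these windows, and a match or its absence in them is a description of the letters.

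Other rows of the family also fell, though not all. In the order of the RefSeq gene table the cluster on chromosome 4 holds 44 named Mup genes and pseudogenes, with Mup20 at place 41, Mup3 at 43 and Mup21 at 44. Beside the rows above, 3 rows of the table named 1 gene of the cluster and 2 rows named 4 Mup genes each. Mup-ps12 had signals of 5.87 and 6.65 on the normal diet and 1.82 and 2.37 on the MCD diet, and fell by 4.16 ± 0.30 (limma adjusted p = 0.0013). The first row naming 4 genes gave 8.18 and 8.51 against 6.07 and 5.59, and the second 7.53 and 8.15 against 5.30 and 6.08. When rows naming several genes were tested too, an alternative added after the data were seen, these fell by 2.51 ± 0.21 (limma adjusted p = 0.00201) and by 2.15 ± 0.31 (limma adjusted p = 0.0111).

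Mup5 and Mup6 were dim on every array, at percentiles 5.6 to 23.2 of all rows, so a fall in them may not show. Mup5 gave 1.44 and 1.92 on the normal diet and 1.60 and 1.77 on the MCD diet, and Mup6 gave 1.93 and 1.76 against 1.80 and 1.67. Their differences of 0.01 ± 0.19 and -0.11 ± 0.13 did not pass (limma adjusted p = 0.984 and 0.691). The sign for Mup5 turned with each array centred on its median (-0.06), without normal diet replicate 1 (-0.23) and without MCD replicate 2 (-0.08). How much of any Mup row comes from near-identical copies was not tested, as the probe sequences were not used here. The values of Mup3, Mup20 and Mup21 are uncertain to that extent.

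**Figure D3:**
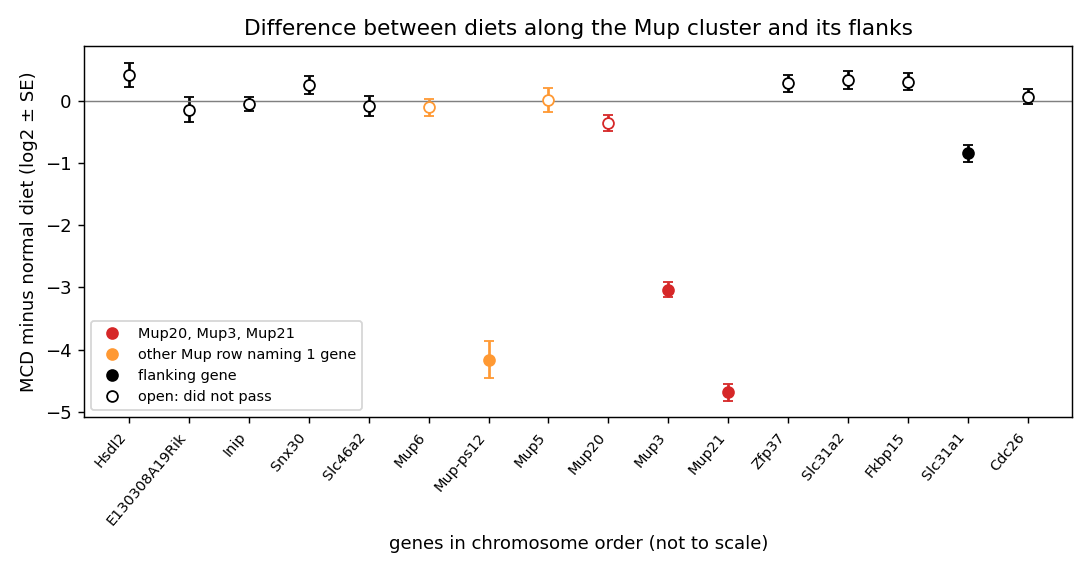
Log2 difference, MCD minus normal diet, with its standard error, for genes in chromosome order (spacing not to scale): 5 flanking genes on each side in black, Mup20, Mup3 and Mup21 in red, other Mup rows naming 1 gene in orange; open points did not pass. Mup-ps12, Mup3 and Mup21 lie between -3.04 and -4.68, while the flanking genes lie between -0.85 and 0.41. Some flanking genes, such as Slc46a2 and Zfp37, were dim on every array, so a large fall in them may not show.

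The genes on both sides of the cluster were measured for comparison. Of the 5 measured protein-coding genes nearest to each end, a set chosen after the files were opened, 1 of 10 fell and 0 rose (limma; 0 were higher at an unadjusted p under 0.05). Over all genes 3.62% fell and 6.37% rose by the same rule. The flanking genes differed by -0.85 to 0.41, beside -3.04 for Mup3 and -4.68 for Mup21. Slc46a2, before the first Mup gene, gave 1.99 and 2.11 against 1.77 and 2.16, and Zfp37, after Mup21, gave 2.26 and 2.38 against 2.51 and 2.68, and neither passed (limma adjusted p = 0.813 and 0.269). Both were dim on the normal diet, with mean signals of 2.05 and 2.32, and the flanking genes Inip and E130308A19Rik had 3.43 and 3.52. A fall as large as that of Mup3 or Mup21 may not show in genes this dim. The other flanking genes had normal diet means of 4.34 to 8.42. Slc31a1, a copper transporter, was the one flanking gene that fell, by 0.85 ± 0.13 (limma adjusted p = 0.0147). That call was lost without normal diet replicate 1 (adjusted p = 0.0564), normal diet replicate 2 (0.0741) or MCD replicate 1 (0.0717).

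The genes whose signals over the 4 arrays were most like those of Mup3 and Mup21 were other hepatocyte genes that fell. Likeness was the root mean square difference between signals centred on each gene's mean, with predicted genes and the Mup family left out. For Mup3 the nearest were the fatty acid hydroxylase Cyp4f14 (root mean square difference 0.096), the lipogenic regulator Thrsp (0.16) and the transporter Slc22a28 (0.179). For Mup21 they were the mannose-binding lectin Mbl2 (0.172), the carboxylesterase Ces2a (0.234) and Cyp4a12a (0.259), a male-biased fatty acid hydroxylase. Mup20 had closer neighbours, Atp5o (0.0044), Yy1 (0.0058) and Zkscan3 (0.0095), which, like Mup20, did not pass the test. Over 4 arrays such a ranking mainly orders genes by the size of their difference between diets.

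Most listed male-biased liver genes, the class to which the major urinary proteins belong, fell with Mup3 and Mup21, while Mup20 did not pass. The lists here and below were chosen with earlier results of these data known. Of 20 listed genes, all measured, 18 fell and 0 rose in limma (0 were higher at an unadjusted p under 0.05), with a median of -3.25. By the same rule 3.62% of all genes were lower and 6.37% higher. Hsd3b5, a steroid dehydrogenase, gave 8.80 and 8.56 on the normal diet against 1.49 and 1.48 on MCD, and Selenbp2 gave 8.59 and 9.65 against 3.75 and 3.74. Slco1a1, an organic anion transporter, gave 9.35 and 9.41 against 2.54 and 2.32, and Elovl3, a fatty acid elongase, gave 9.61 and 9.40 against 3.85 and 4.42. The other two did not pass: Ugt2b38, a glucuronosyltransferase, gave 2.73 and 2.73 against 1.97 and 2.37 (limma adjusted p = 0.0914), and the scavenger receptor Scara5 gave 3.45 and 5.21 against 4.52 and 4.08, with overlapping diets (limma adjusted p = 0.983). The sign for Scara5 turned without normal diet replicate 2 or MCD replicate 2. Of 17 measured female-biased genes 10 rose and 1 fell, with a median of 2.10, beside 6.37% of all genes higher and 3.62% lower. The count that rose was 9 to 10 under the alternatives that kept all 4 arrays, and below 10 with any array left out. The estrogen sulfotransferase Sult1e1 rose by 6.34 ± 0.19, and Cyp2b9 by 5.02 ± 0.38, Atp6v0d2 by 4.64 ± 0.22 and Cyp3a44 by 4.12 ± 0.38. Which cells of the whole liver these rises came from was not tested. The gene that fell was the steroid hydroxylase Cyp17a1, by 2.65 ± 0.57 (limma adjusted p = 0.0406), a call lost without MCD replicate 1 (adjusted p = 0.173) or MCD replicate 2 (0.0955). Among those that did not pass, Hao2, a peroxisomal oxidase, gave 1.93 and 1.78 against 1.91 and 2.53, and the sulfotransferase Sult3a1 gave 1.68 and 1.75 against 1.71 and 2.38 (limma adjusted p = 0.377 and 0.445). The sign for Sult3a1 turned without MCD replicate 2.

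**Figure D4:**
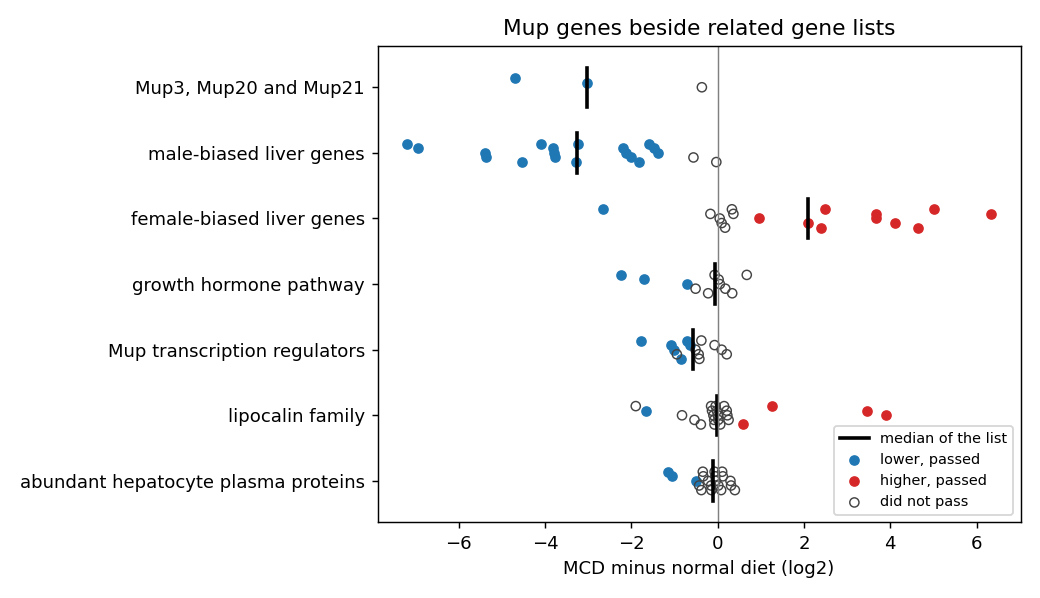
Log2 difference, MCD minus normal diet, for each measured gene of 7 lists; filled points passed (blue lower, red higher), open points did not, and black bars are list medians. The medians were -3.04 for the Mup genes, -3.25 for male-biased and 2.10 for female-biased genes, and between -0.57 and -0.02 for the other 4 lists. Of the 23 lipocalins only 10 were above the median gene on the normal diet, and a fall may not show in the others.

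Growth hormone acts on the hepatocyte through its receptor, the kinase Jak2 and the transcription factor STAT5. Of 11 measured genes of this pathway 3 fell and 0 rose in limma (1 was higher at an unadjusted p under 0.05), with a median of -0.07. By the same rule 3.62% of all genes were lower and 6.37% higher. The receptor gene Ghr gave 8.37 and 8.17 on the normal diet and 6.25 and 6.90 on the MCD diet, and fell by 1.70 ± 0.23 (limma adjusted p = 0.00835). Igfals, which encodes the circulating partner of insulin-like growth factor, fell by 2.25 ± 0.29 (limma adjusted p = 0.00796). Igf1, the growth factor itself, fell by 0.70 ± 0.13 (limma adjusted p = 0.0271), and did not pass under quantile normalization (-0.56, adjusted p = 0.0547). That call was lost without normal diet replicate 1 (adjusted p = 0.076), normal diet replicate 2 (0.127), MCD replicate 1 (0.122) or MCD replicate 2 (0.0527). Stat5b, the STAT5 gene on which the male pattern depends, gave 6.23 and 5.90 against 6.11 and 5.58, with overlapping diets (limma adjusted p = 0.609). Among the feedback genes, Socs2 differed by 0.68 ± 0.20 and Cish by -0.51 ± 0.17, and neither passed (limma adjusted p = 0.0968 and 0.126). Socs2 passed without MCD replicate 1 (0.96, adjusted p = 0.0372) and Cish under quantile normalization (-0.64, adjusted p = 0.0499). So 1 gene of the list was called higher without MCD replicate 1.

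Among 14 measured transcription factors that act on Mup genes, on the sex pattern of the liver or on hepatocyte identity, 6 fell and 0 rose (limma; 0 were higher at an unadjusted p under 0.05). Their median was -0.57, and over all genes 3.62% fell and 6.37% rose. Onecut1, a hepatocyte factor that responds to growth hormone, gave 8.08 and 8.59 against 6.45 and 6.65, and fell by 1.78 ± 0.20 (limma adjusted p = 0.00449). Foxa3, a pioneer factor of hepatocyte genes, fell by 1.08 ± 0.20 (limma adjusted p = 0.0248), a call lost without normal diet replicate 2 (0.091) or MCD replicate 1 (0.114). Cebpa, a factor of mature hepatocytes, fell by 0.86 ± 0.15 (limma adjusted p = 0.0209), a call lost without normal diet replicate 1 (0.0629), normal diet replicate 2 (0.101) or MCD replicate 2 (0.0732). Cebpb differed by -0.94 ± 0.24 without passing (limma adjusted p = 0.0675) and passed without MCD replicate 1 (0.0422). Thrb, a thyroid hormone receptor, fell by 1.01 ± 0.13 (limma adjusted p = 0.00688). Zhx2, a regulator of Mup genes and of fetal liver genes, gave 6.25 and 6.10 against 5.47 and 5.61, and fell by 0.64 ± 0.13 (limma adjusted p = 0.0341). The call of Zhx2 was lost without normal diet replicate 1 (adjusted p = 0.138), normal diet replicate 2 (0.0925), MCD replicate 1 (0.148) or MCD replicate 2 (0.0752). Hnf4a, a main regulator of hepatocyte genes, differed by -0.44 ± 0.16 without passing (limma adjusted p = 0.161). The repressors Bcl6 and Cux2, which act in the sex pattern, differed by -0.51 ± 0.45 and 0.09 ± 0.15 (limma adjusted p = 0.568 and 0.775), and both changed sign without normal diet replicate 2. The 6 that fell became 3 without normal diet replicate 1 and 2 without normal diet replicate 2.

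Of 23 measured lipocalins outside the Mup cluster 4 rose and 1 fell, with a median of -0.02, beside 6.37% of all genes higher and 3.62% lower. Only 10 of the 23 had a normal diet signal above that of the median gene. A fall may not show in the dim ones, so the median of this list is not a like comparison with the Mup genes. The 1 that fell became 2 without normal diet replicate 1 and 3 without normal diet replicate 2. It became 3 under quantile normalization or with each array centred on its median, and 2 without the dimmest 25% of genes, with an intensity trend in limma or by an unadjusted p under 0.05 with at least a 2-fold change. The iron-siderophore binder Lcn2 gave 5.69 and 6.36 on the normal diet and 9.98 and 9.88 on the MCD diet, and rose by 3.91 ± 0.22 (limma adjusted p = 0.00064). The acute phase proteins Orm2 and Orm3 rose by 3.46 ± 0.16 and 1.26 ± 0.16, and both have a close copy in Orm1, which differed by 0.21 ± 0.14. Apod, which rose by 0.59 ± 0.12 from a dim signal, passed with a limma adjusted p of 0.0354. Its call was lost without normal diet replicate 1 (adjusted p = 0.0933), normal diet replicate 2 (0.162), MCD replicate 1 (0.144) or MCD replicate 2 (0.0955). C8g, a subunit of the complement attack complex, was the one that fell, by 1.65 ± 0.12 (limma adjusted p = 0.0013). Obp2a, an odorant-binding protein, gave 3.04 and 4.57 against 1.86 and 1.96 (limma adjusted p = 0.0547) and passed without normal diet replicate 1 (0.00243) or normal diet replicate 2 (0.0244). The sphingolipid carrier Apom gave 7.61 and 6.98 against 6.50 and 6.45 (limma adjusted p = 0.0683) and passed without normal diet replicate 2 (0.0231). The retinol carrier Rbp4, which hepatocytes secrete at a high level, gave 10.78 and 10.73 against 10.80 and 10.56.

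Abundant plasma proteins of hepatocytes other than Mup3 gave a reference for secreted products. Of 20 measured genes 3 fell and 0 rose in limma (1 was higher at an unadjusted p under 0.05), with a median of -0.11. By the same rule 3.62% of all genes were lower and 6.37% higher. Albumin, Alb, gave 12.04 and 11.96 against 11.99 and 11.93, with overlapping diets. The 3 were Itih1 (fell by 1.14 ± 0.15), the protease inhibitor Serpina1a (fell by 1.06 ± 0.23) and Apoa1 (fell by 0.50 ± 0.12), with limma adjusted p of 0.00904, 0.0396 and 0.0493. The call of Serpina1a was lost without normal diet replicate 1 (0.131), normal diet replicate 2 (0.12) or MCD replicate 1 (0.0799), and that of Apoa1 without normal diet replicate 1 (0.163), normal diet replicate 2 (0.176), MCD replicate 1 (0.149) or MCD replicate 2 (0.153). The count became 1 without normal diet replicate 1, normal diet replicate 2 or MCD replicate 1. With an intensity trend in limma it became 5. Of the genes that did not pass, the hemopexin gene Hpx gave 11.06 and 11.07 against 11.49 and 11.45 (limma adjusted p = 0.0924), and Serpina1c, a close copy of Serpina1a, gave 11.09 and 11.05 against 10.60 and 10.68 (limma adjusted p = 0.0819). Hpx passed as higher under quantile normalization (0.0386) and with the intensity trend (0.0276), the 1 gene of the list called higher there, and Serpina1c passed as lower with the intensity trend (0.0293). The summed linear signal of the list was 36120 to 36570 on the normal diet and 34220 to 34600 on the MCD diet. For Mup3, Mup20 and Mup21 together it was 6749 to 7011 on the normal diet and 2331 to 2571 on the MCD diet. Rows do not share a scale for transcript amounts, so these sums are not amounts and the lists cannot be compared by them. The Mup sum mainly follows its bright rows, Mup3 and Mup20.

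The arrays carried the markers of liver tissue, and some markers of other cells moved with the diet. In limma 3.62% of all genes were lower and 6.37% higher. Of 11 measured hepatocyte markers 1 fell in limma, and 5 were lower at an unadjusted p under 0.05. The summed linear signal of these markers was 21810 to 22030 on the normal diet and 17820 to 19110 on the MCD diet. Such sums mainly follow their brightest or most changed rows and do not stand for every marker of a type. Among the hepatocyte markers Pck1 differed by -1.49 and Tat by -0.42, neither passing, while Alb differed by -0.04 and Apob by 0.07. Among the macrophage markers below, Gpnmb rose by 7.33 and Cd68 by 3.43, while Clec4f fell by 1.66. Of 5 cholangiocyte markers 5 rose (39.4 to 46.0 against 148.7 to 155.5). Of 8 macrophage markers 4 rose and 1 fell (284.1 to 304.4 against 1341 to 2044), and of 8 stellate cell and fibroblast markers 4 rose (703.8 to 859.3 against 1810 to 1813). Of 6 endothelial markers 2 fell (614.8 to 671.3 against 444.5 to 452.1), and of 6 T and B cell markers none passed (0 in limma, 3 at an unadjusted p under 0.05; 33.0 to 34.2 against 31.2 to 35.7). Of 6 markers of pancreas, fat and glands, Cidec rose, a lipid droplet gene that fatty liver also expresses, and the sum was 38.0 to 47.9 against 206.7 to 298.2. The part of a changed cell makeup in the falls of Mup3 and Mup21 was not tested.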

How the data were processed

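RNA of 4 liver samples was measured on Mouse Gene 2.1 ST arrays. The submitters' processing notes name Transcriptome Analysis Console as the tool with which the authors made the deposited log2 signals. Its version, the summarization, the background correction and any normalization were not given in these sources, and log2 was inferred from the values. Of 34472 rows the platform annotation named 1 gene for 23521, several for 1814 and none for 9137, and 23328 of the first were found in RefSeq, which updated 0 symbols. The brightest row per gene by mean was used. Unused columns of per-sample values numbered 0. MCD was compared with ND by limma 3.58.1 (R 4.3.3, two-sided, no block, 6.06 degrees of freedom after moderation), with Benjamini-Hochberg adjustment over 22180 genes, a threshold of 0.05 and no filter. The test was checked on simulated data. Promoter windows were aligned with Biopython 1.88. Alternatives were other scalings, filters, row rules and moderation, a replicate block and each array left out. The members and lists were chosen with earlier results of these data known. The promoter alignment, the TATATAA letters, the brightness limit, the flanking genes and the fit with rows naming several genes were chosen after the data were seen. Listed genes without a row were not analysed here. Genes named were Mup3, Mup20 and Mup21, up to 4 called genes per list and direction by size, up to 2 that did not pass, a fixed set (Ghr, Stat5b, Socs2, Igf1, Hnf4a, Bcl6, Cux2, Zhx2, Alb, Lcn2, Rbp4, Slco1a1, Elovl3), and the 3 most alike genes per Mup gene; other Mup rows, the flanking genes, Orm1 and marker genes were named after their values were seen.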

Additional observations from a re-analysis of the deposited data

How the results depend on the processing

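Mup3 and Mup21 stayed lower and past the threshold under all 14 alternatives, with adjusted p up to 0.00315 and 0.00225, and Mup20 stayed lower without passing (adjusted p 0.0659 to 0.383). Leaving out each array in turn gave -3.08 to -2.99 for Mup3, -4.79 to -4.58 for Mup21 and -0.46 to -0.27 for Mup20. The 2 genes called lower remained 2, and 0 were called higher, in each of the 14. All genes called numbered 2214, 1155 by an unadjusted p under 0.05 with at least a 2-fold change (a rule that sets a size limit), and 1050 to 1493 when an array was left out, which leaves fewer samples. The replicate numbers share no stated litter or batch. Deviations of equal-numbered arrays had a correlation of 0.0537 across genes, so the numbers were not taken to pair the samples. With the replicate block 1950 genes were called. Of the lists, 2 lipocalins, 1 plasma protein gene and 4 of the transcription factors were lower with the block, and 3 lipocalins were higher. Zhx2 (limma adjusted p = 0.0613) and Apod (0.0551) did not pass with it. Mup3 kept -3.04 with the block (limma adjusted p = 0.00137), Mup21 -4.68 (0.00101) and Mup20 -0.36 (0.183).

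Signs turned for some genes that did not pass. Under quantile normalization Alb gave 0.0685 and Rbp4 0.0456, and with median centring Mup5 gave -0.0563. Leaving out each array in turn gave -1.2279 to 0.2065 for Bcl6, -0.0378 to 0.2254 for Cux2, -0.2283 to 0.248 for Mup5, -0.1954 to 0.0512 for Rbp4, -0.9083 to 0.848 for Scara5, -0.2838 to 0.1097 for Slc46a2, -0.487 to 0.0488 for Stat5b and -0.0056 to 0.6685 for Sult3a1. The cause was not tested. With 3 arrays, the lone array of a diet is assumed to vary like the others. Mup7 has no value under any setting. Signal over background was not analysed and limits what can be said of Mup21 on the MCD diet.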
